A study of Homo sapiens with 3 samples.

Results

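Aminoacyl-tRNA synthetases are the enzymes that attach each amino acid to its transfer RNA. The genes described here are 37 in all: 19 cytosolic synthetases, counting GARS1 and KARS1, which each serve both compartments from 1 gene, 16 mitochondrial synthetases, and the scaffold proteins AIMP1 and AIMP2. They were listed by name and not by a threshold on measured values, though earlier results of these data were known when the list was made. A gene was measured where a probe set named it alone. Of the 37 genes, 36 were measured, among 18417 genes in all, and AIMP2 was not analysed here. The level of each gene was read in LNCaP cells, an androgen-responsive human prostate carcinoma line, on Affymetrix arrays. The labels describe 3 arrays: 1 of cells given a negative control siRNA (si-negative control), and 1 each of cells given siSE1 or siSE2, siRNAs against the SLC45A3-ELK4 chimeric transcript. All cells were grown in RPMI1640 with serum and transfected with RNAiMAX for 72 hours. The array titled siSE2 has siSE1 in its transfection field. Its group was taken from the title, and were the field right both arrays would carry 1 siRNA. Separate cultures are not stated, so the errors below measure the spread between these arrays only.

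Each cell makes protein in the cytosol and inside mitochondria. Most cytosolic synthetases have a separate mitochondrial counterpart, encoded by another nuclear gene and imported after synthesis. The enzymes fall into class I and class II by the fold of their catalytic domain, and several cytosolic ones are held with AIMP1 and AIMP2 in a multisynthetase complex. Many cytosolic synthetase genes are known targets of ATF4, the transcription factor that is translated when amino acids run short or charged transfer RNA is lacking, and ATF4 binds C/EBP-ATF response elements near their start sites. The chimeric transcript includes sequence of ELK4, which encodes an ETS-family transcription factor.

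The array medians were 5.80 (control), 5.84 (siSE1) and 5.84 (siSE2) on the log2 scale. Of 7 measured luminal markers 4 lay above the control on both siRNA arrays and 2 below, and 0 passed the test described next. ACP3, which encodes prostatic acid phosphatase, read 6.39, 7.04 and 7.26 in the same order, and KLK3, which encodes prostate-specific antigen, 10.04, 9.59 and 9.71. The luminal keratins KRT8 and KRT18 were above the control by 0.43 and 0.42. All 3 blood markers above the lower limit on levels lay above the control on both arrays, LYZ at 4.41, 6.09 and 5.11 (adjusted p = 0.0989), CD68 at 0.30 and CD14 at 0.27 above it, and none passed (limma). That limit, log2 5.12, is on the mean of the 3 arrays, and LYZ and CD14 (5.03) lay under it on the control array. Both passed it through their siRNA arrays, which favours genes above the control. The count of blood markers and the LYZ p-value therefore give no direction. PTPRC, which defines blood cells, read 3.17, 3.22 and 3.18. Of 5 stromal markers tested 3 lay above the control on both arrays and 1, ACTA2, below (-0.47), and DCN, under the limit, read 2.80, 3.04 and 3.04. Of 2 basal markers tested 1, KRT14, lay above on both (0.19). Over all genes tested 36.4% lay above the control on both arrays and 41.7% below, which is the background for these marker counts. The part of these markers in the results below was not tested. KLK3, PTPRC and DCN were named after their values were seen. In bulk RNA, fewer cells of a type and less RNA per cell cannot be told apart. The parent genes of the chimera are not members and are not described here.

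None of the 36 measured genes passed the test of the siRNA arrays against the control, which does not show that their levels were unchanged. A gene was called where the mean of the siRNA arrays differed from the control array with an adjusted p under 0.05 (limma, Benjamini-Hochberg over the 12892 genes with a mean level of at least log2 5.12, n = 2 against 1). All 36 genes passed that lower limit. The fit called 0.962% of the genes tested (0.248% higher and 0.714% lower) and 0 of the 36. At an unadjusted p under 0.05, 2 synthetase genes were lower and 1 was higher (limma), where the same rule took 11.3% of all genes tested lower and 6.46% higher. No synthetase gene was 1.5-fold from the control with both siRNAs, against 0.582% of genes higher and 1.53% lower, and none reached 1.5-fold with either siRNA alone. That size was reached by 1.45% of genes higher and 4.27% lower with siSE1, and by 1.2% higher and 2.82% lower with siSE2. The fit has 1 residual degree of freedom, from the difference between the siRNA arrays, and takes the lone control array to vary as they do.

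The intervals of most genes lay inside 1.5-fold, but they rest on 1 control array and do not bound a change between separate cultures. For 30 of the 36 genes (83.3%) the unadjusted 95% interval of the difference lay inside 1.5-fold in both directions, and this held for 68.0% of all genes tested. The intervals of AARS1, CARS1, GARS1, MARS1 and AARS2 reached past 1.5-fold lower, and that of SARS2 past 1.5-fold higher. The largest difference was that of AARS1, at -0.51 on the log2 scale.

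**Figure D1:**
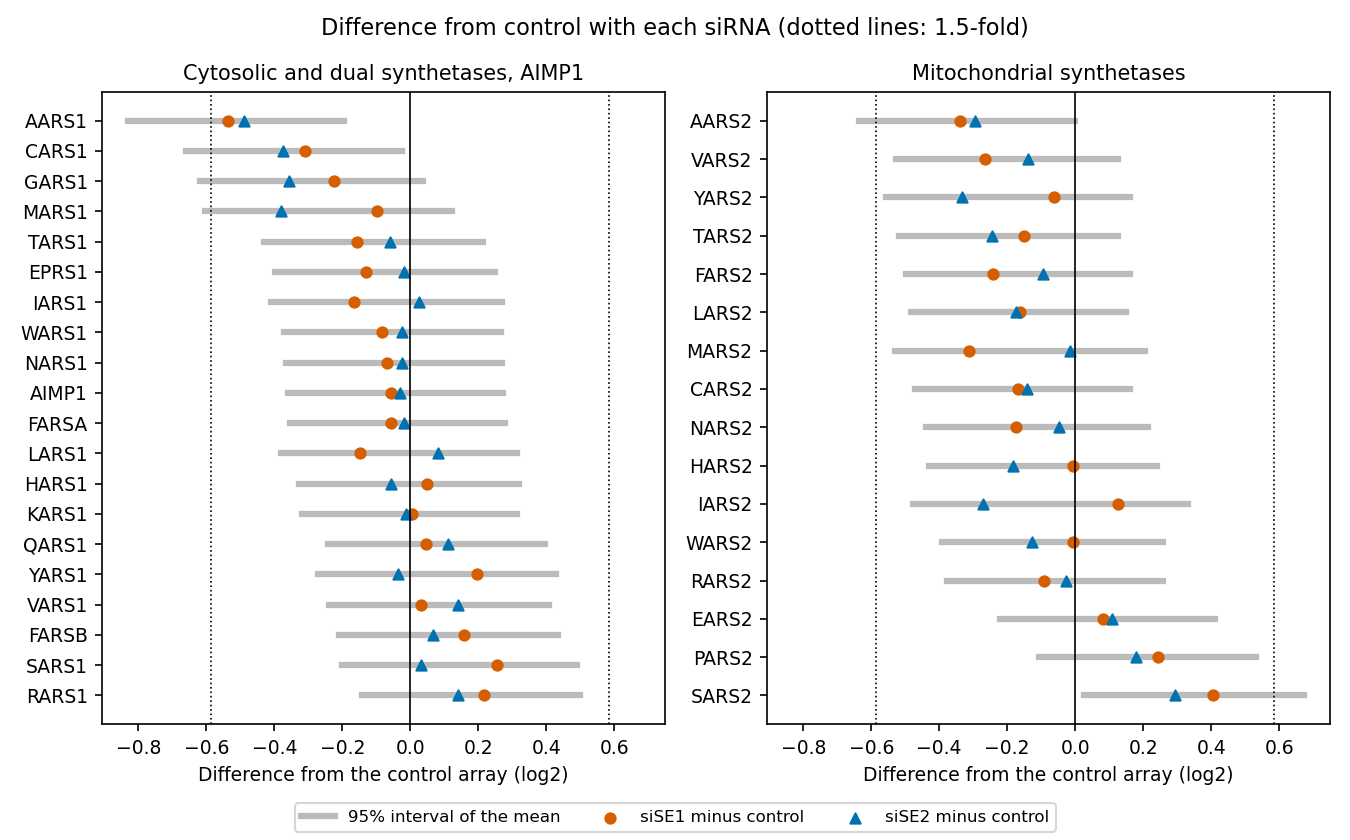
Difference from the control array (log2, x axis) for each gene, with siSE1 as circles, siSE2 as triangles, the unadjusted 95% interval of their mean as a grey bar and 1.5-fold as dotted lines. No point passes the dotted lines; AARS1 lies lowest, with -0.54 and -0.49, and SARS2 highest, with 0.41 and 0.29.

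Among the cytosolic enzymes the lowest differences were those of the alanyl, cysteinyl, glycyl and methionyl enzymes. AARS1, the alanyl-tRNA synthetase, read 9.79 with the control siRNA, 9.25 with siSE1 and 9.30 with siSE2. Both siRNA arrays lay below the control, and the mean difference of -0.51 ± 0.14 (SE) did not pass (limma, adjusted p = 0.113; 1.43-fold lower). It was at percentile 4.41 of the differences of all genes tested. CARS1, the cysteinyl enzyme, read 7.07, 6.76 and 6.69 in the same order, a difference of -0.34 ± 0.14 (limma, adjusted p = 0.250). GARS1, the glycyl enzyme of both compartments, read 9.75, 9.52 and 9.39, a difference of -0.29 ± 0.15 (limma, adjusted p = 0.330). For both genes the control array was again the highest of the 3. MARS1, the methionyl enzyme, read 9.18, 9.08 and 8.80, so most of its difference of -0.24 ± 0.16 came from the siSE2 array.

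The others of the 19 listed cytosolic enzymes lay within 0.18 of the control on the log2 scale by the mean of the siRNA arrays. RARS1, the arginyl enzyme, had the highest difference of the 19, with 8.91 in control cells, 9.13 with siSE1 and 9.05 with siSE2 (0.18 ± 0.14). It did not pass. TARS3, a further threonyl enzyme gene outside the list, is counted below with other steps of charging. It read 6.36, 6.53 and 6.94, a difference of 0.37 ± 0.18, and was named after its values were seen. SARS1, the seryl enzyme, read 9.82, 10.07 and 9.85, higher on the siSE1 array than on the others. FARSA and FARSB, the subunits of the phenylalanyl enzyme, differed by -0.037 and 0.11. KARS1, the lysyl enzyme of both compartments, read 9.18, 9.18 and 9.17, and HARS1, the histidyl enzyme, 10.12, 10.17 and 10.06. QARS1, the glutaminyl enzyme, read 10.70, 10.75 and 10.81. WARS1, the tryptophanyl enzyme that interferon is known to induce, read 8.95, 8.87 and 8.93. The scaffold AIMP1 read 7.08, 7.02 and 7.04. VARS1, the valyl enzyme, had 2 probe sets with identical values, 9.05 in control cells, 9.08 with siSE1 and 9.19 with siSE2.

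**Figure D2:**
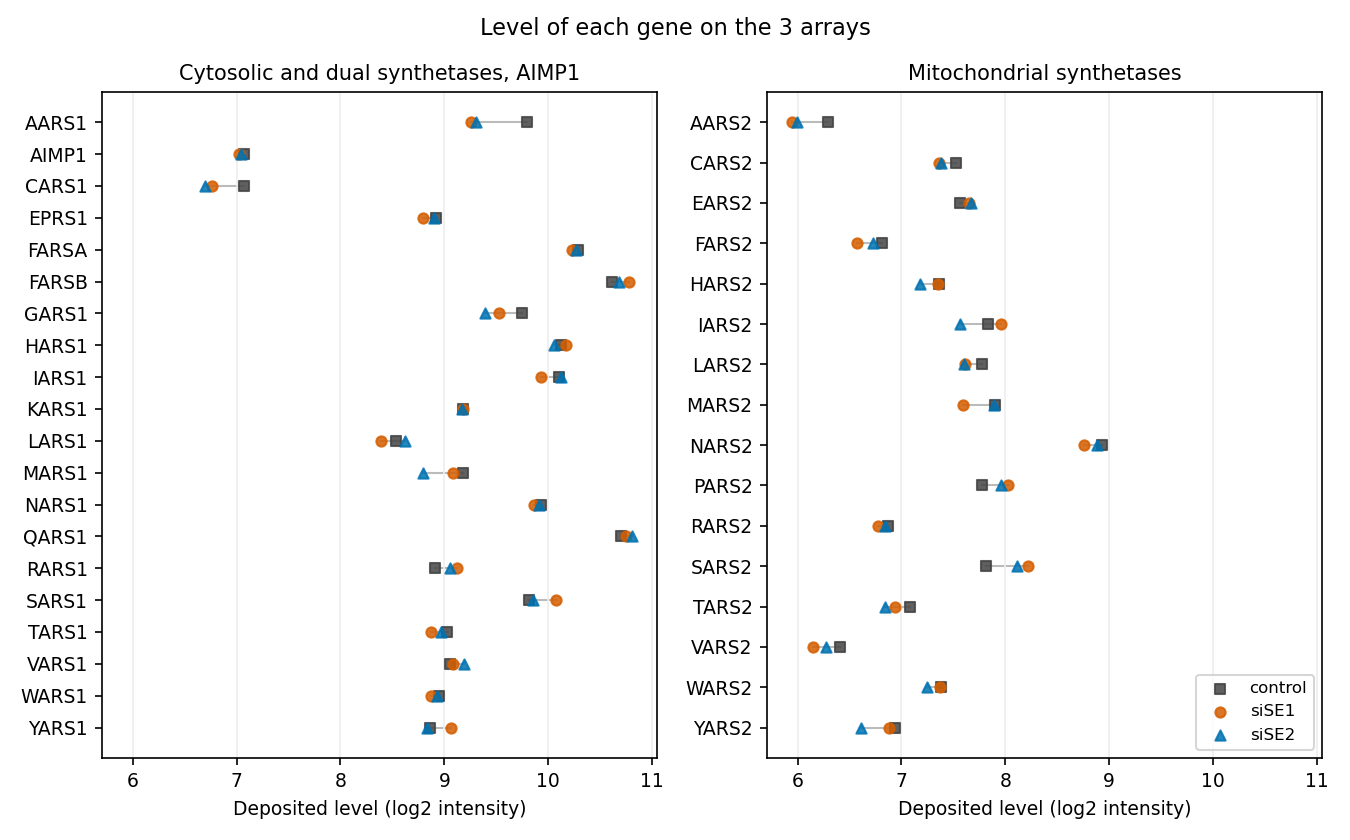
Deposited level (log2 intensity, x axis) of each measured gene on the control (squares), siSE1 (circles) and siSE2 (triangles) arrays; levels of different probe sets are not on 1 scale and are compared only within a row. AARS1 and CARS1 show both siRNA arrays below the control array, SARS2 shows both above it (8.22 and 8.11 against 7.82), and KARS1 shows all 3 together.

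Among the mitochondrial enzymes AARS2 lay lowest and SARS2 highest. AARS2, the mitochondrial alanyl enzyme, read 6.29 in control cells, 5.95 with siSE1 and 5.99 with siSE2, which is a difference of -0.32 ± 0.14 that did not pass (limma, adjusted p = 0.282). SARS2, the seryl enzyme, read 7.82, 8.22 and 8.11, a difference of 0.35 ± 0.14 (limma, adjusted p = 0.249). Neither gene had a siRNA array on the far side of the control. PARS2, the prolyl enzyme, read 7.78, 8.02 and 7.96, and EARS2, the glutamyl enzyme, 7.57, 7.65 and 7.67; with SARS2 these were the 3 mitochondrial genes above the control on both arrays. Another 12 lay below it on both.

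Of those 12, VARS2, the valyl enzyme, read 6.41, 6.15 and 6.27, and TARS2, the threonyl enzyme, 7.08, 6.93 and 6.84. LARS2, the leucyl enzyme, read 7.78, 7.61 and 7.60, and CARS2, the cysteinyl enzyme, 7.53, 7.36 and 7.38. YARS2, the tyrosyl enzyme, read 6.94, 6.88 and 6.61, low mainly with siSE2, while MARS2, the methionyl enzyme, read 7.90, 7.59 and 7.89, low with siSE1. RARS2, WARS2, HARS2, NARS2 and FARS2 differed by -0.059, -0.067, -0.094, -0.11 and -0.17 on the mean of the siRNA arrays.

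The mitochondrial genes had a lower median than the cytosolic ones. The median difference was -0.037 over the 19 cytosolic genes, with -0.069 for siSE1 and -0.020 for siSE2, and -0.13 over the 16 mitochondrial genes, with -0.12 and -0.13. Over all 12892 genes tested it was -0.019, with -0.023 and -0.013. The cytosolic median was thus 0.097 above the mitochondrial one, a gap of 0.051 with siSE1 and 0.11 with siSE2. Of the cytosolic genes 9 of 19 lay below the control on both siRNA arrays and of the mitochondrial genes 12 of 16, where 41.7% of all genes tested did; 5 cytosolic and 3 mitochondrial genes lay above it on both, against 36.4% of genes tested. Both siRNAs are compared with the same control array, so that array enters every such count. Under quantile normalization and under cyclic loess 7 cytosolic and 9 mitochondrial genes lay below the control on both arrays, and with equal array medians 11 and 12 did. The share of all genes tested moved too, to 39.2% with quantile normalization, 41.2% with cyclic loess and 48.5% with equal array medians. Among the 7262 genes tested within the level range of the cytosolic members the median was -0.064 and 49.7% lay below on both arrays. Among the 8026 within that of the mitochondrial members these values were -0.047 and 46.4%. No test of the compartments was made, since genes are not replicates.

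Set side by side by amino acid, the compartments showed no common order. The cytosolic gene stood above its counterpart on both siRNA arrays in 8 of 17 pairs, below it in 5, and the arrays disagreed in 4. EPRS1, whose protein charges both glutamate and proline, enters with EARS2 and with PARS2, and FARS2 enters with both subunits, so the pairs are not independent. The alanyl and cysteinyl pairs lay below 0 in both compartments, with the cytosolic gene lower: AARS1 and AARS2 differed from the control by -0.51 and -0.32, and CARS1 and CARS2 by -0.34 and -0.16. The seryl pair lay above 0 in both, SARS1 at 0.14 and SARS2 at 0.35. The valyl pair parted, VARS1 at 0.08 and VARS2 at -0.20, as did the tyrosyl pair, YARS1 at 0.08 and YARS2 at -0.20. The widest gaps were those of EPRS1 and PARS2 (-0.29 on the log2 scale) and of VARS1 and VARS2 (0.29), and the median gap over the 17 pairs was 0.065.

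**Figure D3:**
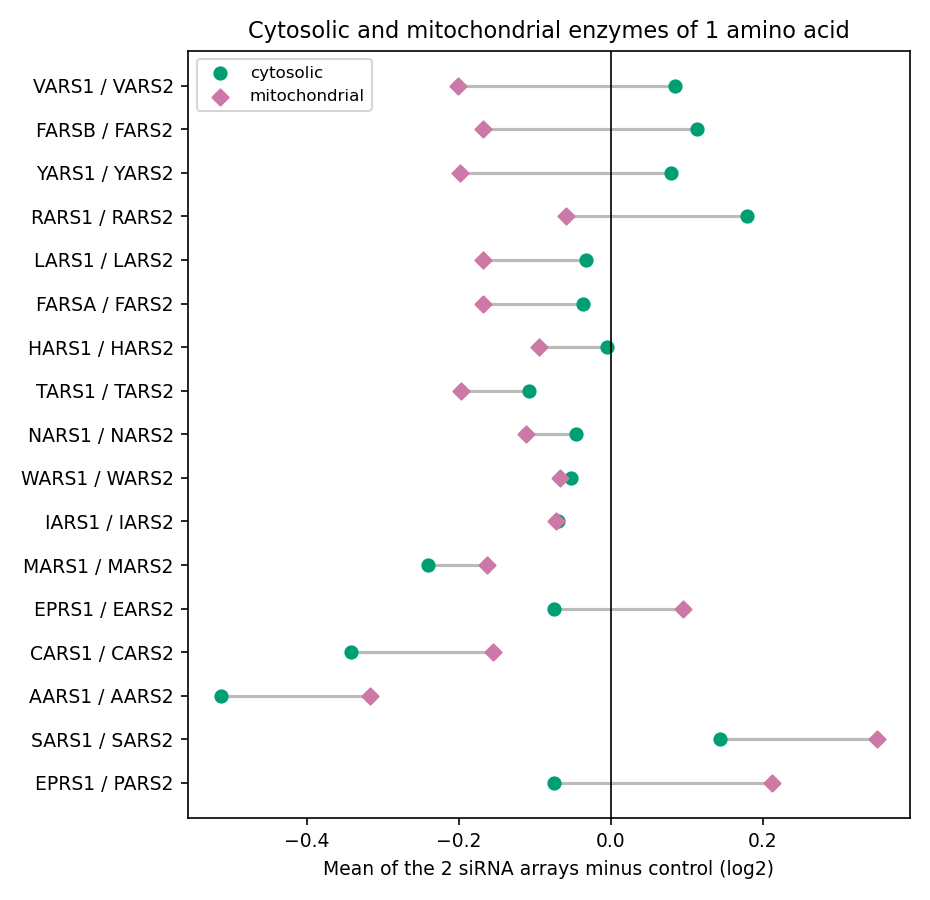
Mean of the siRNA arrays minus the control (log2, x axis) for the cytosolic (circles) and mitochondrial (diamonds) gene of each amino acid, ordered by their gap. The gap runs from -0.29 (EPRS1 and PARS2) to 0.29 (VARS1 and VARS2), with AARS1 and AARS2 the lowest pair on the axis.

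Medians by catalytic class and by complex membership lay close together. The 18 class I genes had a median difference of -0.069 and the 16 class II genes one of -0.070; EPRS1, which holds a domain of each class, was left out of both. The 8 measured members of the multisynthetase complex had a median of -0.038, and the 12 cytosolic genes outside it (dual ones included) one of -0.042. The siRNAs disagreed most for IARS2, the mitochondrial isoleucyl enzyme, which read 7.83 in control cells, 7.96 with siSE1 and 7.56 with siSE2. MARS2 and MARS1 followed, with siSE1 minus siSE2 at -0.30 and 0.28, in opposite directions. No member differed by 1.5-fold between the siRNAs, against 1.16% of all genes tested.

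The promoter sequences of the genes were then read for the element that ATF4 is known to bind. The lowest cytosolic genes, like other cytosolic ones that did not lie low, are among its textbook targets. RefSeq promoter windows (GRCh38.p14, 250 bases before to 50 after the start site) were at hand for 32 of the 37 genes, and not for AARS2, LARS1, VARS1, VARS2 and YARS1. The core of the element, TGATGNAA on either strand, was found in 8 of these 32 genes (25.0%), against 4.46% of 27305 genes with a window and 2.60% of the 10244 of them that were tested. By compartment it was in 7 of 16 cytosolic genes and in 1 of 14 mitochondrial ones, YARS2. In 6 of the 7 cytosolic genes the open base was C (TGATGCAA), a form found in 1.08% of all genes with a window. A gene with several start sites was counted once if any of its windows matched. The matches, in capitals with up to 20 bases on either side, are shown because the cytosolic genes with and without one differed in their values; TTGCATCA is the same core read on the other strand.
AARS1 (chr16:70289666-70289713, minus strand): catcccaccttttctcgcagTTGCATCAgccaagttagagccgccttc
CARS1 (chr11:3057398-3057445, minus strand): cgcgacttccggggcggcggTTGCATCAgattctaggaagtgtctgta
GARS1 (chr7:30594825-30594872, plus strand): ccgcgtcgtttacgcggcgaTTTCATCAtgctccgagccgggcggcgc
MARS1 (chr12:57488044-57488091, plus strand): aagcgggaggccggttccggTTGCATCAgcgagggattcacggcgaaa
TARS1 (chr5:33440947-33440994, plus strand): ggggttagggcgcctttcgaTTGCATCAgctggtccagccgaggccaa
IARS1 (chr9:92293683-92293730, minus strand): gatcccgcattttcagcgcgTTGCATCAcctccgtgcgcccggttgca
NARS1 (chr18:57621807-57621842, minus strand): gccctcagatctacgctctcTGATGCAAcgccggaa
YARS2 (chr12:32756067-32756114, minus strand): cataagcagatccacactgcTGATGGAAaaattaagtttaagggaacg
Counting the start site as 0, the match began at -187 in AARS1 and at -197 in YARS2, and between -33 and 14 in the other 6 genes.

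The 7 cytosolic genes with the core all had differences below 0, from -0.51 (AARS1) to -0.047 (NARS1), with a median of -0.24. The 9 cytosolic genes without it in their windows ranged from -0.075 (EPRS1) to 0.18 (RARS1), with a median of -0.0035. The 5 lowest cytosolic genes, AARS1, CARS1, GARS1, MARS1 and TARS1, all carried it, while IARS1 (-0.070) and NARS1 overlapped the other group. The median of the carriers was -0.17 with siSE1 and -0.36 with siSE2, and that of the others 0.046 and -0.012. IARS1 was above the control with siSE2, so 6 of the 7 carriers lay below it on both arrays, as did 3 of the 9 cytosolic genes without the core, 45.5% of all tested genes with it and 43.3% of those without it. Across all genes tested the core went with no such gap: the median was -0.031 over the 266 genes with it and -0.028 over the 9978 without it. By the mean, 147 of those 266 and 5459 of those 9978 lay below 0, as did 5 of the 9 cytosolic genes without the core. Of 20 genes linked to ATF4 and amino acid supply with a window, 5 carried the core. Their differences ran from -0.46 (SLC3A2) to 0.51 (ASNS), with a median of -0.30 and 4 of the 5 below 0. The 15 without it, among them SLC7A5 (-0.88), had a median of -0.041, with 9 below 0. The element was searched because of which cytosolic genes lay lowest, so their split is not independent of their values. No test was made of the split, none of the synthetase genes passed singly, and a match in a window does not show binding.

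**Figure D4:**
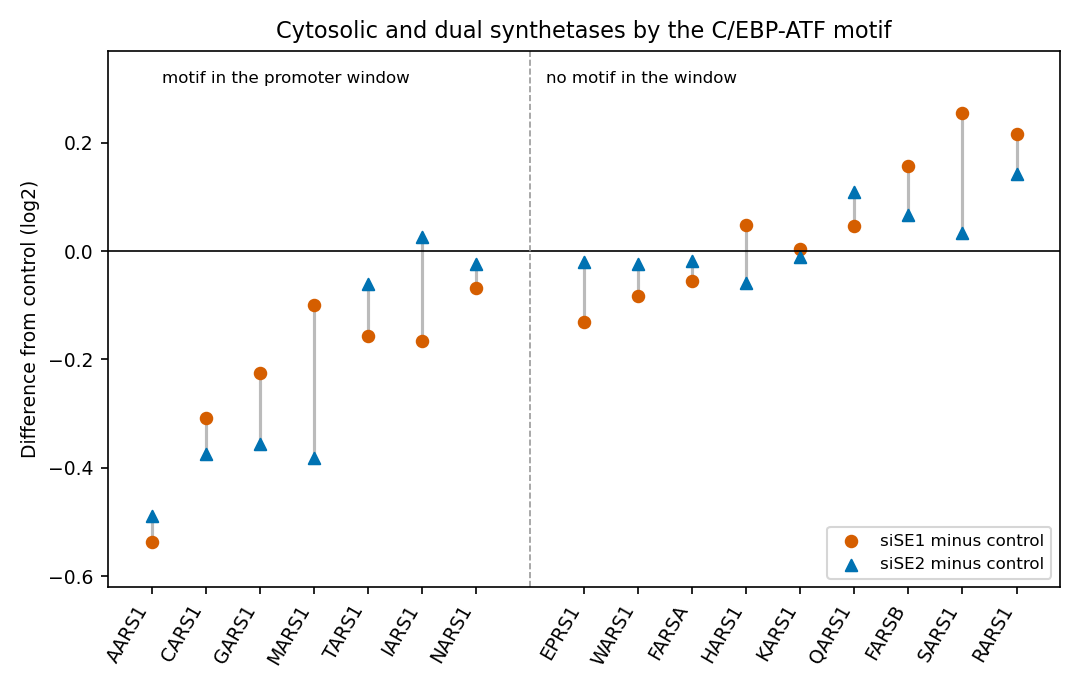
Difference from the control array (log2, y axis) with siSE1 (circles) and siSE2 (triangles) for the cytosolic and dual synthetase genes that have a promoter window, split by the core TGATGNAA on either strand. The 7 genes with the core have means from -0.51 to -0.047, and the 9 without it from -0.075 to 0.18, so the groups overlap at IARS1, NARS1, EPRS1 and WARS1.

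AARS1 is the gene with the largest difference, and its window is printed up to the start site, with the core in capitals.
AARS1 promoter (GRCh38.p14, chr16:70289507-70289756, minus strand): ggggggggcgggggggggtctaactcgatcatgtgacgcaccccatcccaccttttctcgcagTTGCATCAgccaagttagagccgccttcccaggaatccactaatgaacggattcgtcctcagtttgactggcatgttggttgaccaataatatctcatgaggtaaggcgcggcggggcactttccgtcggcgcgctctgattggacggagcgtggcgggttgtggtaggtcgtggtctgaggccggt

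The binding sequence of ETS factors was searched too, since the siRNAs target a transcript with ELK4 sequence. The motif CCGGAAGT, on either strand, was in 8 of 32 genes (CARS1, EARS2, HARS1, HARS2, NARS1, PARS2, TARS1 and WARS1), against 4.95% of all genes with a window and 9.22% of those tested. The members with it had a median difference of -0.050 and those without it -0.072, and over all genes tested the medians were -0.069 and -0.024. HARS1 and HARS2, which encode the cytosolic and the mitochondrial histidyl enzymes, start 85 bases apart and face away from each other, so the stretch between them precedes both starts. It is shown in the HARS1 direction because it holds the ETS motif once near each start, in capitals.
HARS1 and HARS2 (GRCh38.p14, chr5:140691371-140691454, minus strand): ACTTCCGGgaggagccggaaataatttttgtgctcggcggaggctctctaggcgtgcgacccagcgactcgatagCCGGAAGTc
HARS1 differed from the control by 0.05 with siSE1 and -0.06 with siSE2, and HARS2, which read 7.36, 7.35 and 7.18, by -0.0059 and -0.18.

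Of the 8 pairs in which a member and a measured gene on the other strand start within 1000 bases of each other, 1 lay on the same side of the control on both siRNA arrays and 3 on opposite sides on both. The same count over other head-to-head pairs was not made. Of all single genes tested, 41.7% lay below the control on both arrays and 36.4% above, so the count of 8 pairs gives no direction for neighbours. The genes given below were named after their values were seen. RARS2 and ORC3, an origin recognition gene, differed from the control by -0.059 and -0.15 on the mean. SARS2 stood above the control by 0.35 while its neighbour MRPS12, a mitochondrial ribosomal protein gene, differed by -0.25 ± 0.14 (limma, adjusted p = 0.390). EARS2 and UBFD1 differed by 0.095 and -0.23, and WARS1 and WDR25 by -0.053 and 0.034. None of these genes passed.

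Among genes that work beside the synthetases, only SLC7A5, a gene of amino acid uptake, passed the test in the charging and ATF4 lists. Of 10 measured genes for other steps of charging, 0 passed over all genes, 3 lay below the control on both arrays and 4 above. MTFMT, which formylates the mitochondrial initiator methionyl-tRNA, read 8.43 in control cells, 7.84 with siSE1 and 7.89 with siSE2, which is a difference of -0.56 ± 0.14 (limma, adjusted p = 0.0929). DTD2 and QRSL1, a proofreading deacylase and a subunit of the mitochondrial glutaminyl amidotransferase, differed by -0.34 ± 0.14 and -0.37 ± 0.15. Of 24 genes linked to ATF4 and amino acid supply, SLC7A5, which encodes a large neutral amino acid transporter, fell by 0.88 on the log2 scale (limma, adjusted p = 0.0326), though not with the lower limit on levels removed (adjusted p = 0.107), and 0 rose. The median of these 24 was -0.12, and their differences ran from -0.88 (SLC7A5) to 0.66 (DDIT4). Of the 24, 13 lay below the control on both arrays and 7 above. Of all genes tested 41.7% lay below on both and 36.4% above, which is also the background for the 10 charging genes. SLC3A2, the partner chain of SLC7A5, and MTHFD2, a mitochondrial folate enzyme, differed by -0.46 ± 0.14 and -0.57 ± 0.14. The 2 probe sets of ATF4 itself disagreed: the brighter read 9.24, 8.96 and 8.85, a difference of -0.33, and the other 7.85, 8.16 and 8.17, a difference of 0.31, so their average of -0.0072 gives no direction for the gene. ASNS, the asparagine synthetase gene, stood above the control on both arrays, at 7.90, 8.51 and 8.30 (limma, adjusted p = 0.136). ATF4, ASNS and DDIT4 were named after their values were seen.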

How the data were processed

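The authors deposited log2 intensity values per probe set, 33297 rows for 3 arrays, and per the submitters' processing notes the tool was Affymetrix Expression Console; its version, its algorithm and a genome build were not given in the sources used here. The log2 scale was taken from the range of 1.43 to 13.9. Symbols were updated by gene identifier, 19460 probe sets named 1 gene (19429 matched the RefSeq gene table), and probe sets of a gene were averaged. Genes with a mean below the 30th percentile were left out. The mean of both siRNA arrays was set against the control array with limma 3.58.1 in R 4.3.3 (lmFit, eBayes, Benjamini-Hochberg over all genes tested); the prior had 8.46 degrees of freedom, and the fit was tested on simulated data. SE is the moderated standard error. The number of arrays limits the precision. Members and gene lists were chosen with earlier results of these data known. Named genes are members, and up to 3 of each other list by the smaller of their changes in 1 direction; others are marked. Alternatives covered 3 normalizations, 2 filters, the highest probe set, robust eBayes and leaving out each siRNA array.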

Additional observations from a re-analysis of the deposited data

How the results depend on the processing

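No synthetase gene passed the test, and none was 1.5-fold from the control with both siRNAs, under any alternative that could be run; their lowest adjusted p was 0.102 (AARS1, equal array medians; 0.102 to 0.207 over the alternatives with a test). AARS1 was the lowest and SARS2 the highest member under each. The count over all genes was 124 as reported, 189 with quantile normalization, 35 with a filter at the 50th percentile and 1 with no filter. The cytosolic median was -0.077 with equal array medians and -0.013 with both quantile normalization and cyclic loess. It ran from -0.069 to -0.020 leaving out 1 siRNA array. The mitochondrial median was -0.087 with quantile normalization, -0.17 with equal medians, -0.097 with cyclic loess and -0.10 with the higher filter, and -0.13 to -0.12 leaving out 1 array. Their gap ran from 0.051 to 0.11 leaving out 1 array. With quantile normalization and cyclic loess, differences near 0 changed sign: HARS1 (1.5e-05 and 0.016), LARS1 (0.015 and 0.011), KARS1 (0.030 and 0.032) and ATF4 (0.038 and 0.034); with equal medians WDR25 did (-0.0061). With the brightest probe set of each gene ATF4 differed by -0.33 (limma, adjusted p = 0.276) against -0.0072 as averaged. The 2 ATF4 probe sets differed by -0.33 and 0.31, and this setting kept only the brighter, at -0.33. The higher filter left out AARS2 and VARS2, at level percentiles 45.9 and 49.5, so its mitochondrial median rests on fewer genes. Why the ATF4 probe sets disagreed was not tested. Leaving out a siRNA array leaves no residual degree of freedom, so the test could not be run then. No paired analysis was possible because there is 1 control array.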

Other observations

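Factors that carry charged transfer RNA to the ribosome did not pass either. Of 7 measured cytosolic elongation factor genes 0 passed, with a median difference of 0.037. EEF1B2, an exchange factor subunit, read 7.21 in control cells, 7.38 with siSE1 and 7.59 with siSE2 (0.27 ± 0.15; limma, adjusted p = 0.386), and EEF1A1, which delivers charged transfer RNA, 12.75, 12.86 and 12.84. Of 11 mitochondrial translation factor genes 0 passed, with a median of 0.023, on the other side of 0 from the mitochondrial synthetases (-0.13). GFM1, the mitochondrial elongation factor G, read 7.85, 8.27 and 8.14 (0.36 ± 0.15; limma, adjusted p = 0.247), and GUF1, a mitochondrial elongation factor, 8.71, 9.03 and 8.94. MTRF1, a mitochondrial release factor family member, read 5.36, 5.24 and 5.12, near the lower limit on levels.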
